A study of Mus musculus with 19 samples.

Results

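Messenger RNA of the nuclear receptors that sense foreign chemicals and metabolites was measured in mouse liver. The genes described are Nr1i2, Nr1i3, Nr1h3, Nr5a2, Hnf4a, Rxra, Rxrb, Thrb, Esr1 and Esrra, chosen by name, and every array probe annotated to one of them was taken. These 10 genes have 15 probes among 23978 probes with a gene name, which cover 16593 genes. The 19 arrays each hold liver RNA of 1 male Swiss-Webster mouse, aged 7 weeks and fasted. The control group received the vehicle DMSO (n = 6), the IDFP group received isopropoyl dodecyl fluorophosphonate (IDFP) at 10 mg/kg (n = 8), and the AM251/IDFP group received AM251 at 10 mg/kg before the same dose of IDFP (n = 5). All injections were intraperitoneal and livers were taken after 4 h. IDFP is an organophosphorus inhibitor of the enzymes that degrade endocannabinoids, and AM251 is an antagonist of the cannabinoid receptor CB1, so that the comparison of AM251/IDFP with IDFP asks which IDFP effects needed CB1. No group received AM251 alone, and an effect of AM251 of its own cannot be told apart from its action on the IDFP response.

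Nuclear receptors are transcription factors that bind DNA through zinc fingers and change their activity when a small lipophilic ligand, such as a sterol, bile acid, hormone or drug, occupies their ligand pocket. Many of them bind DNA as a pair with a retinoid X receptor, so that the retinoid X receptors Rxra and Rxrb are common partners of the xenobiotic receptors Nr1i2 and Nr1i3, of the oxysterol receptor Nr1h3 and of the thyroid hormone receptor Thrb. Others, such as Hnf4a, Nr5a2 and Esrra, are active without a classical hormone, and Hnf4a is a master regulator of hepatocyte identity. Ligand binding, nuclear entry and coregulator recruitment all act on the protein, whereas the arrays measure only the amount of the receptor's own mRNA.

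Signals are given in background-corrected intensity units and were compared only within a probe, because brightness differs between probes for reasons other than mRNA amount. Of the 10 genes, 9 had a probe detected on most of the arrays in some group, and they were tested among 9346 genes. Of the 15 probes, 13 were detected. The only probe of Thrb was above the detection limit on 0 of 19 arrays, with signals of 18.7 to 56.7, and a second probe of Esr1 was detected on none either, with signals of 21.5 to 40.9. Detection was judged on the deposited values, which are lower than the corrected signals. They were -23.5 to 15.1 for Thrb and -20.2 to -0.72 for this Esr1 probe. No level and no change is given for Thrb.

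IDFP lowered the signal of Hnf4a and that of the brighter of 2 probes of the retinoid X receptor Rxrb, while the dimmer Rxrb probe was not called and pointed the other way. No other receptor passed the threshold under IDFP. With AM251 before IDFP, Hnf4a lay near the DMSO mean, whereas the brighter Rxrb probe stayed below DMSO. Of the 9 genes tested for IDFP vs. DMSO, each by its brightest detected probe, 2 fell and 0 rose by limma at an adjusted p of 0.05, where 16.3% of all tested genes were called, with 6.76% of all tested genes higher and 9.53% lower. The livers of DMSO and IDFP did not overlap for 0 of the 9 genes and for 4.24% of all genes. At an unadjusted p under 0.05, 4 of the 9 genes passed, beside 30.8% of all genes, and the additional ones were Rxra and Esrra. For AM251/IDFP vs. IDFP, 1 gene, Hnf4a, rose and 0 fell, beside 10.8% of all genes called (5.97% higher, 4.85% lower), and 4 passed at an unadjusted p under 0.05, beside 24% of all genes. For AM251/IDFP vs. DMSO, 1 gene, Rxrb, fell and 0 rose, beside 9.88% of all genes called (3.66% higher, 6.22% lower), and 0 had livers that did not overlap, beside 4.88% of all genes. This gene was also the only one at an unadjusted p under 0.05, which 24.6% of all genes passed. The called shares of the 9 genes, 22.2%, 11.1% and 11.1%, thus lay near those of all genes. The 9 genes had a median log2 change of 0.035 for IDFP vs. DMSO, beside -0.00087 for all tested genes, of -0.034 for AM251/IDFP vs. IDFP, beside -0.012, and of -0.058 when AM251/IDFP was set against DMSO, beside -0.0085. Every pair of these comparisons has a group of arrays in common, so they are not independent of each other.

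**Figure D1:**
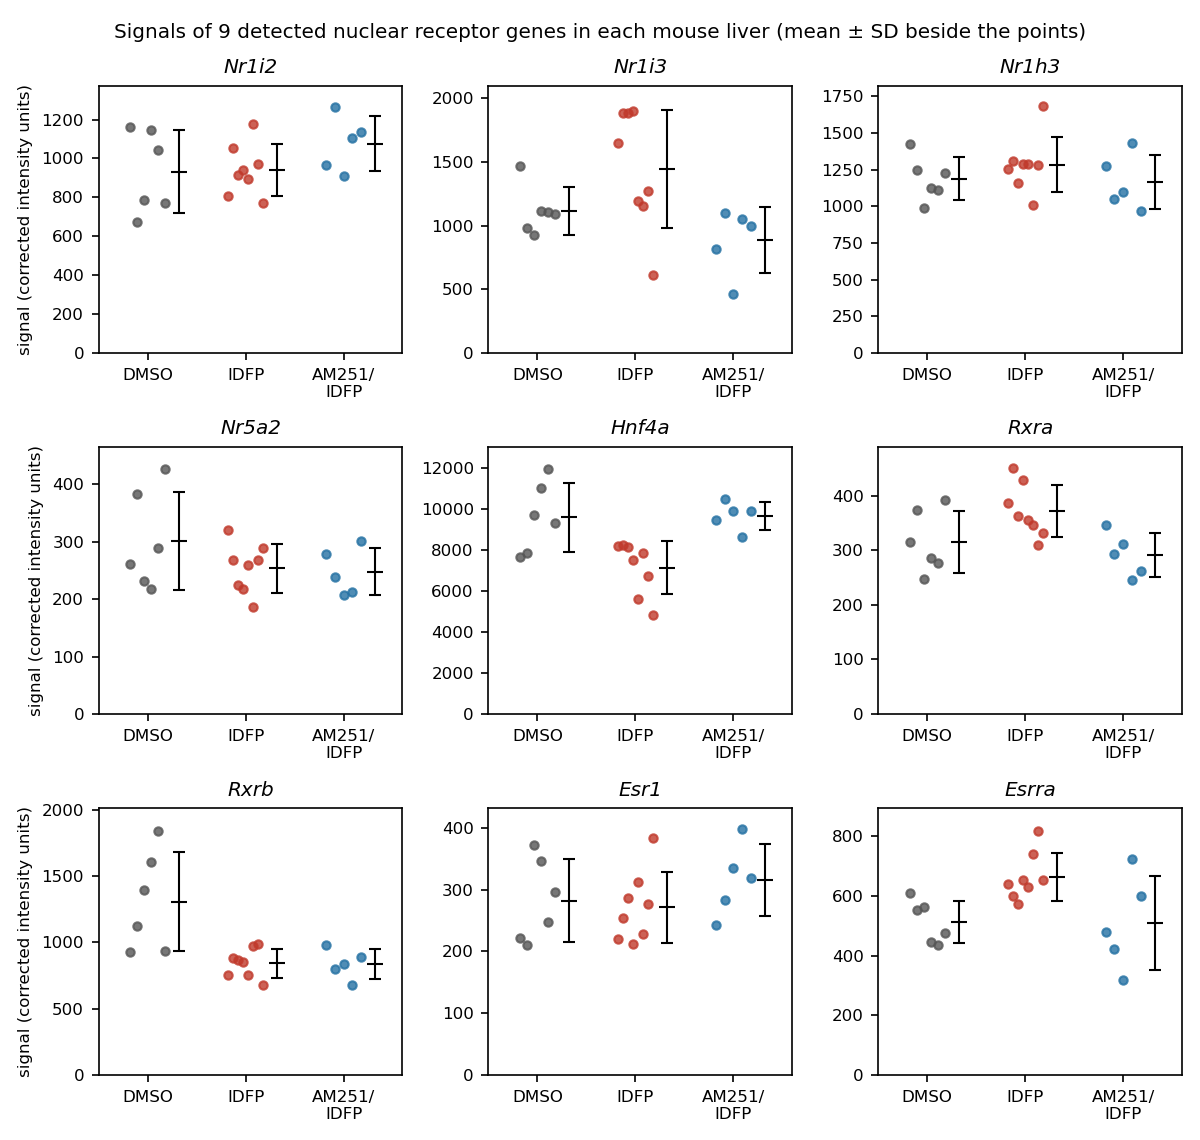
Signal (corrected intensity units, linear axis from 0) of the tested probe of each detected receptor in every liver of the DMSO, IDFP and AM251/IDFP groups, with the mean ± SD of the group beside the points. All 5 AM251/IDFP points of Hnf4a lie above every IDFP point, and 6 of 8 IDFP points of Rxrb lie below the lowest DMSO point.

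Hnf4a (hepatocyte nuclear factor 4 alpha) lies on chromosome 2 at 163506811 to 163572907 in GRCm38.p6. The DMSO arrays read Hnf4a at 7664 to 11922 with a median of 9506, the IDFP arrays at 4849 to 8218 with a median of 7669, and the AM251/IDFP arrays at 9441, 10468, 9878, 8637 and 9878. The ranges of DMSO and IDFP overlapped, yet 0 of 8 IDFP livers reached the DMSO mean and 4 lay below the lowest DMSO liver. The AM251/IDFP livers did not overlap with the IDFP livers, which holds for 4.6% of all tested genes in that comparison. The group means were 9580 ± 1696 (SD, n = 6) for DMSO, 7130 ± 1288 (SD, n = 8) for IDFP and 9660 ± 679 (SD, n = 5) for AM251/IDFP.

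For IDFP vs. DMSO, the log2 change of Hnf4a was -0.43 ± 0.13 (SE, limma, adjusted p = 0.0237), or 0.742-fold with a 95% interval of 0.618 to 0.891. AM251/IDFP exceeded IDFP by a log2 difference of 0.46 ± 0.13 (SE, adjusted p = 0.0307), or 1.37-fold with an interval of 1.13 to 1.67. Between AM251/IDFP and DMSO the difference was 0.028 on the log2 scale, with an interval of -0.27 to 0.32 (adjusted p = 0.936). Expressed as percent reversal, the share of the IDFP difference in mean signal that was undone in the AM251/IDFP group, Hnf4a reached 103.3%, and the single AM251/IDFP mice gave 61.5% to 136.2%. The fall under IDFP lost its call without DMSO replicate 4 or 5 (adjusted p = 0.0665 and 0.0758). The rise after AM251 lost it without IDFP replicate 5 or 7 or without AM251/IDFP replicate 1, 2, 3 or 5, with an adjusted p of up to 0.0716, and when genes below detection were tested too (adjusted p = 0.0504).

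Whole liver was measured, so that a lower level can mean fewer cells of a type or less RNA in each of them, and these cannot be told apart. All 7 hepatocyte markers (Alb, Apoa1, Serpina1a, Cps1, Ass1, Pck1, Arg1) were detected, and their summed signal was 87780 to 106300 in DMSO, 99530 to 117400 in IDFP, and 105300 to 118900 with AM251/IDFP. Of these, 1 was called for IDFP vs. DMSO, Ass1, which rose by 0.37 (adjusted p = 0.0352). For AM251/IDFP vs. DMSO, 2 were called higher, Ass1 (0.51, adjusted p = 0.0206) and Arg1 (0.36, adjusted p = 0.0434). Alb read only 437 ± 276 (SD) in DMSO and so adds little to the sum. The 5 detected endothelial markers of 6 summed to 6928 to 9354 in DMSO, 6057 to 8333 in IDFP, and 5620 to 8215 with AM251/IDFP, with Kdr not detected. That sum is mostly Clec4g, the only one of them called for IDFP vs. DMSO (-0.36, adjusted p = 0.0275), whereas Pecam1 (0.19), Cdh5 (0.23) and Stab2 (0.041) had positive values and Lyve1 (-0.19) a negative one, none of them called. From IDFP to AM251/IDFP, Lyve1 rose by 0.69 (adjusted p = 0.046). The other endothelial markers were not called there, with Pecam1 at 0.032 and negative values for Stab2 (-0.22), Clec4g (-0.070) and Cdh5 (-0.065). The 3 detected neutrophil markers of 4 summed to 488.2 to 1283, 757.8 to 1427 and 1163 to 6361 in the same order, with Elane not detected, and S100a8 (1.46) and S100a9 (1.36) were called higher in AM251/IDFP than in DMSO. The AM251/IDFP group was wide, with a median sum of 1413 beside its highest of 6361. Its mean signals were 1514 ± 1456 (SD, n = 5) for S100a8 and 802 ± 779 for S100a9. The 6 detected Kupffer cell markers of 7 summed to 3834 to 5509, 3656 to 5763 and 3170 to 4756, with Cd5l not detected, and the 6 stellate cell markers, all detected, to 2892 to 3720, 2993 to 4257 and 2805 to 4244. By limma, 0 markers of these lists were called for IDFP vs. DMSO, with 0 Kupffer and 0 stellate cell markers at an unadjusted p under 0.05. From IDFP to AM251/IDFP, where Hnf4a rose, the Kupffer cell markers Timd4 (-0.42, adjusted p = 0.0327) and Clec4f (-0.42, adjusted p = 0.0467) and the stellate cell marker Lrat (-0.91, adjusted p = 0.0154) fell. The Kupffer cell marker Marco went the other way without a call (0.66, adjusted p = 0.0619), the only positive value of its list. Lrat was dim, at 77.3 ± 22.5 (SD) in IDFP and 42.6 ± 16.4 in AM251/IDFP. No other stellate cell marker was called, with Reln at 0.017 and Col1a1 at -0.0070. The 3 detected lymphocyte markers of 6 were dim, and Cd3e was called lower for IDFP vs. DMSO (-0.34, adjusted p = 0.0427). Ms4a1 (0.14) and Cd79b (0.0019) were not called there. Of the 3 erythroid markers, 0 were called by limma for IDFP vs. DMSO. Alas2 had the only positive value of that list (0.77, unadjusted p = 0.017, adjusted p = 0.0799). Krt7, the only cholangiocyte marker detected, was not called in any comparison. The part of these cell types in the receptor changes was not tested.

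Rxrb (retinoid X receptor beta) lies on chromosome 17 at 34031812 to 34038403. The gap of 121 bases between Rxrb and its neighbour Slc39a7 is shown because the brighter Rxrb probe was called lower than DMSO in both treated groups. It spans chr17:34031691-34031811 on the plus strand, 5′ to 3′ up to the base before the Rxrb start, and the capitals mark the GC box GGGCGG, the letters bound by Sp1-type factors.

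Rxrb: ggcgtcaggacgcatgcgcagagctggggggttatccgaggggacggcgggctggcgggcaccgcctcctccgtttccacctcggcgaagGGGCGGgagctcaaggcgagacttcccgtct

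The GC box starts 31 bases before the start, and 26.6% of promoters cut to this length hold one on either strand. A match of letters is a description and not a measured binding site. The array has 2 probes for Rxrb, and they did not agree. The brighter probe (ILMN_2593038), which was the one tested, read 930 to 1840 in DMSO with a median of 1258, 682 to 989 in IDFP with a median of 858, and 983, 802, 837, 681 and 890 in AM251/IDFP. Of the treated livers, 6 of 8 with IDFP and 4 of 5 with AM251/IDFP lay below the lowest DMSO liver, and neither range was clear of the DMSO range. The DMSO livers were also the most spread, with a mean of 1305 ± 373 (SD, n = 6), beside 843 ± 109 (n = 8) for IDFP and 838 ± 112 (n = 5) for AM251/IDFP.

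By this probe the log2 signal of Rxrb fell by 0.59 ± 0.14 (SE, limma, adjusted p = 0.00695) for IDFP vs. DMSO, a level of 0.663-fold with a 95% interval of 0.54 to 0.815. After AM251 and IDFP it fell by 0.60 ± 0.16 relative to DMSO (SE, adjusted p = 0.0233), or 0.66-fold with an interval of 0.524 to 0.831. AM251/IDFP and IDFP differed by -0.0074 on the log2 scale, with an interval of -0.32 to 0.31 (adjusted p = 0.986). The percent reversal was -0.957%, and single AM251/IDFP mice gave -35.0% to 30.4%. The difference between AM251/IDFP and DMSO lost its call without DMSO replicate 3, 4 or 5 or without AM251/IDFP replicate 2 or 4, with an adjusted p of up to 0.0648, and when only these groups were fitted (adjusted p = 0.0668).

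The dimmer Rxrb probe (ILMN_1245492) was detected on all 19 arrays and pointed the other way. It read 74.3 to 108 in DMSO with a median of 96.5, 88.6 to 142 in IDFP with a median of 111, and 118, 109, 123, 117 and 79.0 in AM251/IDFP. Its log2 change for IDFP vs. DMSO was 0.25 (95% interval -0.0066 to 0.52, adjusted p over all probes = 0.183), so it gave no call. The intensity correction raised this probe from 45.0 as deposited to 86.7 in DMSO replicate 1, and the brighter probe from 888 to 930. The log2 change of the dimmer probe is therefore understated more than that of the brighter one. When the log2 signals of both probes were averaged, the change of Rxrb was -0.17 for IDFP vs. DMSO (adjusted p = 0.222) and -0.19 for AM251/IDFP vs. DMSO (adjusted p = 0.26), and neither was called. The fall of Rxrb therefore rests on its brighter probe, and which probe follows the amount of Rxrb mRNA was not tested.

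**Figure D2:**
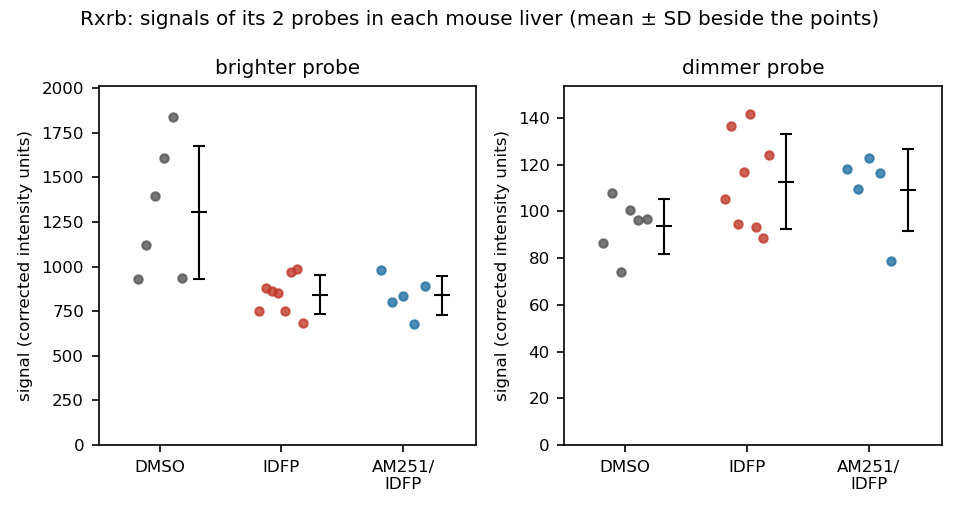
Signals (corrected intensity units, linear axes from 0) of the brighter and the dimmer Rxrb probe in every liver of the 3 groups, with group mean ± SD beside the points. The brighter probe has its highest points, up to 1840, in DMSO, whereas the dimmer probe reaches 108 in DMSO and 142 in IDFP.

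Rxra (retinoid X receptor alpha), a main RXR of hepatocytes, lies on chromosome 2 at 27676445 to 27763319. Its signals were 248 to 392.4 in DMSO with a median of 301, 310 to 452 in IDFP with a median of 360, and 348, 293, 311, 246 and 262 in AM251/IDFP. The groups overlapped in all comparisons, with the IDFP livers on the high side. The log2 change was 0.25 ± 0.11 (SE) for IDFP vs. DMSO (unadjusted p = 0.0421, adjusted p = 0.144) and -0.35 ± 0.12 for AM251/IDFP vs. IDFP (unadjusted p = 0.00836, adjusted p = 0.0667). Neither passed the adjusted threshold, and the sign was opposite to that of the brighter Rxrb probe under IDFP.

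Nr1i3 (CAR, the constitutive androstane receptor) lies on chromosome 1 at 171213934 to 171218845. It induces the Cyp2b enzymes in response to phenobarbital-like chemicals. DMSO livers ranged from 931 to 1467 with a median of 1100, IDFP livers from 612 to 1897 with a median of 1463, and the AM251/IDFP livers read 814, 1103, 464, 1052 and 998. The IDFP group was wide, with 4 livers at 1651 to 1897 and the others at 612 to 1276, and its lowest liver lay below every DMSO liver. The log2 change was 0.31 ± 0.23 (SE, adjusted p = 0.395) for IDFP vs. DMSO and -0.69 ± 0.24 (adjusted p = 0.073) for AM251/IDFP vs. IDFP. Neither was called, and without IDFP replicate 8 the latter was called at -0.85 (adjusted p = 0.00856). With other arrays left out it was not called and shrank to as little as -0.47, with an adjusted p of up to 0.251.

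Nr1i2 (PXR, the pregnane X receptor), which induces Cyp3a enzymes on binding drugs and steroids, lies on chromosome 16 at 38248349 to 38294849. It read 673 to 1163 in DMSO with a median of 917, 769 to 1178 in IDFP with a median of 927, and 967, 1265, 911, 1106 and 1134 in AM251/IDFP. The IDFP livers lay within the DMSO range but for 1 liver slightly above it. This gave a log2 change of 0.035 for IDFP vs. DMSO with a 95% interval of -0.23 to 0.30 (adjusted p = 0.89), and 0.20 for AM251/IDFP vs. IDFP with an interval of -0.087 to 0.48 (adjusted p = 0.42).

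The genes that Nr1i3 and Nr1i2 are known to induce were read from a list of drug-metabolizing enzymes and transporters. Of its 19 tested genes of 23 on the array, 2 rose and 0 fell for IDFP vs. DMSO, namely the efflux transporters Abcc3 (log2 change 0.56 ± 0.17 SE, adjusted p = 0.0295) and Abcc2 (0.56 ± 0.19, adjusted p = 0.0489). The genes next in rank, Cyp3a25 with 0.28 (adjusted p = 0.0712) and the glutathione transferase Gstm1 with -0.18 (adjusted p = 0.464), were not called. Cyp2b10, the classical CAR target, read 959 ± 345 (SD, n = 6) in DMSO, 1230 ± 722 (n = 8) in IDFP and 9864 ± 2697 (n = 5) with AM251/IDFP. Its log2 signal thereby rose by 3.18 ± 0.34 (SE) from IDFP to AM251/IDFP (adjusted p = 1.16e-05) and exceeded DMSO by 3.39 (adjusted p = 4.54e-05). Beside it, Cyp3a13 rose by 0.90 ± 0.28 from IDFP to AM251/IDFP (adjusted p = 0.0419), and no other listed gene was called in that comparison. Of all tested genes, 16.3% were called for IDFP vs. DMSO, 10.8% for AM251/IDFP vs. IDFP and 9.88% for AM251/IDFP vs. DMSO. At an unadjusted p under 0.05 by limma, the shares in the same order were 30.8%, 24% and 24.6%. The counts of this list and of those below stand beside these shares.

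For AM251/IDFP vs. DMSO, 3 of the 19 genes rose, which were Cyp2b10, the heme synthesis enzyme Alas1 by 1.20 ± 0.35 (SE, adjusted p = 0.0339) and Abcc2 by 0.68 ± 0.21 (adjusted p = 0.0486). The median log2 change of the list was -0.037 for IDFP vs. DMSO, -0.021 for AM251/IDFP vs. IDFP and 0.12 relative to DMSO after both agents. The large rise of Cyp2b10 thus stood beside a Nr1i3 signal that was lower, without a call, in the same AM251/IDFP group (886 ± 260, SD, n = 5, against 1444 ± 463, n = 8, for IDFP). Of 4 tested genes for the cytoplasmic retention and signaling of CAR, 0 were called by limma in any comparison, and an unadjusted p under 0.05 was reached by 3 for IDFP vs. DMSO, by 0 for AM251/IDFP vs. IDFP and by 2 after both agents relative to DMSO. The smallest p for IDFP vs. DMSO belonged to Dnajc7, a co-chaperone that holds CAR in the cytoplasm (log2 change -0.29 ± 0.11, SE, unadjusted p = 0.0146, adjusted p = 0.072), followed by the chaperone Hsp90aa1 (0.48 ± 0.19, adjusted p = 0.0866), the growth factor receptor Egfr (-0.37 ± 0.17, adjusted p = 0.154) and the phosphatase subunit Ppp2ca (-0.17 ± 0.13, adjusted p = 0.408).

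Nr1h3 (LXR alpha, the oxysterol receptor that turns on sterol efflux and lipogenesis) lies on chromosome 2 at 91184061 to 91202829. Its tested probe (ILMN_2663374) read 992 to 1426 in DMSO with a median of 1178, 1011 to 1682 in IDFP with a median of 1285, and 1272, 1051, 1100, 1429 and 970 in AM251/IDFP. The 3 groups overlapped broadly. The log2 change was 0.11 for IDFP vs. DMSO, with a 95% interval of -0.12 to 0.34 (adjusted p = 0.551), and -0.14 for AM251/IDFP vs. IDFP, with an interval of -0.38 to 0.097 (adjusted p = 0.498). The second, dimmer probe read 145 to 384 over all livers and was not called in any comparison.

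Among 10 tested LXR targets of 11 on the array, 2 rose and 0 fell for IDFP vs. DMSO. These were Lpcat3, which inserts polyunsaturated chains into phospholipids (0.59 ± 0.11, SE, adjusted p = 0.000768), and Srebf1, the lipogenic transcription factor (1.16 ± 0.25, adjusted p = 0.00339), while the sterol transporter Abcg8 with 0.47 (adjusted p = 0.0619) and Smpdl3a with 0.19 (adjusted p = 0.131) were not called. From IDFP to AM251/IDFP, 3 fell, with Lpcat3 at -0.82 ± 0.11 (adjusted p = 0.000161), Abcg8 at -0.83 ± 0.18 (adjusted p = 0.00489) and Srebf1 at -0.96 ± 0.27 (adjusted p = 0.023). Lpcat3 had mean signals of 2127 ± 164 (SD) in DMSO, 3202 ± 358 in IDFP and 1841 ± 357 with AM251/IDFP. Srebf1 was dim and widely spread under IDFP, at 73.6 ± 14.8 (SD) in DMSO, 180 ± 102 in IDFP and 86.3 ± 29.4 with AM251/IDFP. The median log2 change of the list was 0.15 for IDFP vs. DMSO and -0.18 for AM251/IDFP vs. IDFP, and 0 of the 10 genes were called by limma for AM251/IDFP vs. DMSO, where 0 had an unadjusted p under 0.05. Of the 10 targets, 8 had a positive log2 change for IDFP vs. DMSO and 3 from IDFP to AM251/IDFP. Abca1, which was dim, went against the called genes in both comparisons without a call. Its values were -0.36 (adjusted p = 0.139) and 0.33 (adjusted p = 0.243). The 2 of 10 targets called under IDFP stand beside 16.3% of all tested genes, and the 3 of 10 called from IDFP to AM251/IDFP beside 10.8%. The Nr1h3 probes themselves gave no call.

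Nr5a2 (LRH-1, which acts on bile acid and cholesterol genes) lies on chromosome 1 at 136842562 to 136960448 and has 3 probes. The tested one (ILMN_2634389) read 217 to 427 in DMSO with a median of 275, 187 to 320 in IDFP with a median of 264, and 279, 238, 208, 212 and 301 in AM251/IDFP. For this probe the log2 change was -0.22 for IDFP vs. DMSO, with a 95% interval of -0.53 to 0.097 (adjusted p = 0.354), and -0.034 for AM251/IDFP vs. IDFP (interval -0.37 to 0.30, adjusted p = 0.926). The other probes read 85.4 to 142 and 53.7 to 77.3 over all livers and were not called either. Of 7 tested bile acid genes of LRH-1 and FXR, 0 were called by limma in any comparison, and an unadjusted p under 0.05 was reached by 1 for IDFP vs. DMSO, by 1 for AM251/IDFP vs. IDFP and by 2 after both agents relative to DMSO. The smallest p for IDFP vs. DMSO was that of the lipoprotein receptor Scarb1 (log2 change 0.27, unadjusted p = 0.0224, adjusted p = 0.0947). From IDFP to AM251/IDFP the smallest were those of Cyp7a1, the rate-limiting enzyme of bile acid synthesis (-1.33 ± 0.61, SE, adjusted p = 0.18), and Cyp8b1, which directs the pathway to cholic acid (-0.34 ± 0.17, adjusted p = 0.223).

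**Figure D3:**
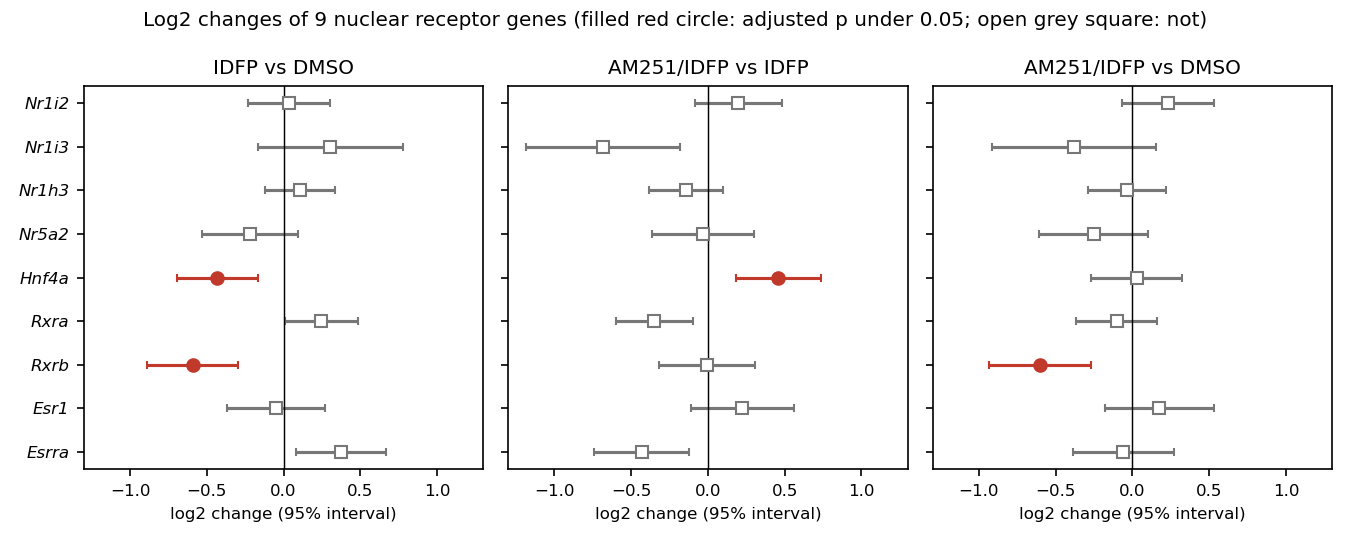
Log2 change with its 95% interval (limma) for the 9 tested receptors in IDFP vs. DMSO (left), AM251/IDFP vs. IDFP (middle) and the AM251/IDFP vs. DMSO comparison (right), where filled red circles mark an adjusted p under 0.05 and open grey squares the rest. Filled circles stand at Hnf4a (-0.43) and Rxrb (-0.59) in the first panel, at Hnf4a (0.46) in the second and at Rxrb (-0.60) in the third.

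Esrra (ERR alpha, an orphan receptor of oxidative metabolism that works with PGC-1 coactivators) lies on chromosome 19 at 6910977 to 6922048. Its signals were 435 to 608 in DMSO with a median of 514, 572 to 818 in IDFP with a median of 646, and 477, 421, 320, 723 and 600 in AM251/IDFP. All 8 IDFP livers lay above the DMSO mean and 6 above the highest DMSO liver, while the AM251/IDFP livers spanned nearly the whole range. The log2 change was 0.37 ± 0.14 (SE) for IDFP vs. DMSO (unadjusted p = 0.0154, adjusted p = 0.0748) and -0.43 ± 0.15 for AM251/IDFP vs. IDFP (unadjusted p = 0.00881, adjusted p = 0.0685), so neither was called. The first was called without AM251/IDFP replicate 3 or 4 (adjusted p = 0.0344 and 0.0412) and the second without AM251/IDFP replicate 4 or 5 (adjusted p = 0.0124 and 0.0467). With other arrays left out neither was called. The first then fell to as little as 0.33 (adjusted p of up to 0.172). The second shrank to as little as -0.28 (adjusted p of up to 0.247).

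Of 7 tested ERR alpha targets, 1 rose for IDFP vs. DMSO, the pyruvate dehydrogenase kinase Pdk4, which spares glucose in fasting (2.70 ± 0.45, SE, adjusted p = 0.000339). It fell by 1.95 ± 0.47 from IDFP to AM251/IDFP (adjusted p = 0.0104), again as the only one called. Pdk4 varied widely within the IDFP group (996 ± 841, SD, n = 8) beside DMSO (107 ± 16.5, n = 6). The respiratory genes of the list gave no call, with Idh3a at -0.31 (adjusted p = 0.0661), Cox5b at 0.15 (adjusted p = 0.132) and Atp5b at 0.059 (adjusted p = 0.633). The median of the list was 0.084 for IDFP vs. DMSO.

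Esr1 (estrogen receptor alpha) lies on chromosome 10 at 4611989 to 5005633. Its detected probe read 210 to 372 in DMSO with a median of 272, 213 to 384 in IDFP with a median of 265, and 243, 284, 335, 398 and 320 in AM251/IDFP. Its log2 change was -0.048 for IDFP vs. DMSO, with a 95% interval of -0.36 to 0.27 (adjusted p = 0.869), and 0.22 for AM251/IDFP vs. IDFP, with an interval of -0.11 to 0.56 (adjusted p = 0.438). All comparisons overlapped. Thrb lies on chromosome 14 at 17659225 to 18040097. Only genes that thyroid hormone receptors in general induce can be described for it, and that list does not single out Thrb. Of 6 tested thyroid hormone targets, 1 rose for IDFP vs. DMSO, the transcription factor Klf9 (0.37 ± 0.095, SE, adjusted p = 0.0107), and 0 were called by limma from IDFP to AM251/IDFP, with 0 at an unadjusted p under 0.05. The lipogenic protein Thrsp had log2 changes of 0.68 (adjusted p = 0.341) and 0.92 (adjusted p = 0.257) in these comparisons.

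Known targets of HNF4A were read beside the receptor. Of 11 tested, 1 rose and 0 fell for IDFP vs. DMSO, namely Mttp, which loads lipid onto apolipoprotein B (0.40 ± 0.12, SE, adjusted p = 0.0262), in the opposite direction to Hnf4a itself. The clotting factor F12 (0.29, adjusted p = 0.0748), the tyrosine aminotransferase Tat (0.79, adjusted p = 0.114) and the urea cycle enzyme Otc (0.23, adjusted p = 0.19) were not called. From IDFP to AM251/IDFP, where Hnf4a rose, 0 of the 11 targets were called by limma and 2 had an unadjusted p under 0.05. The smallest p there were those of Otc (-0.29, unadjusted p = 0.0315, adjusted p = 0.157) and Tat (0.81, adjusted p = 0.169), and Tat exceeded DMSO in AM251/IDFP by 1.60 ± 0.38 (adjusted p = 0.0138). The median log2 change of the list was 0.18 for IDFP vs. DMSO and 0.022 for AM251/IDFP vs. IDFP.

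The rest of the nuclear receptor family was read for scale. Of 33 other receptors on the array, 17 were tested, and 4 rose and 1 fell for IDFP vs. DMSO, where 6.76% of all tested genes were higher and 9.53% lower. The difference from the 9 receptors described here was not tested. The greatest changes among them were those of the clock repressor Nr1d1 (1.86 ± 0.18, SE, adjusted p = 1.28e-06) and the bile acid receptor Nr1h4 (FXR, -0.97 ± 0.097, adjusted p = 2.85e-06), another RXR partner, whose mean signal was 6200 ± 567 (SD) in DMSO, 3178 ± 443 in IDFP and 3868 ± 461 with AM251/IDFP. The others that rose were Rora (0.70), Nr2f6 (0.52) and Nr3c1 (0.45). From IDFP to AM251/IDFP, 2 rose, Nr2c1 (0.49) and Pparg (0.66), and 3 fell, Nr1d1 (-1.80), Nr2f6 (-0.53) and the third retinoid X receptor Rxrg (-0.49, adjusted p = 0.00749). Relative to DMSO, only Nr1h4 was called among the 17 in AM251/IDFP (-0.68, adjusted p = 0.00107). The median log2 change of the 17 was 0.056 for IDFP vs. DMSO.

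**Figure D4:**
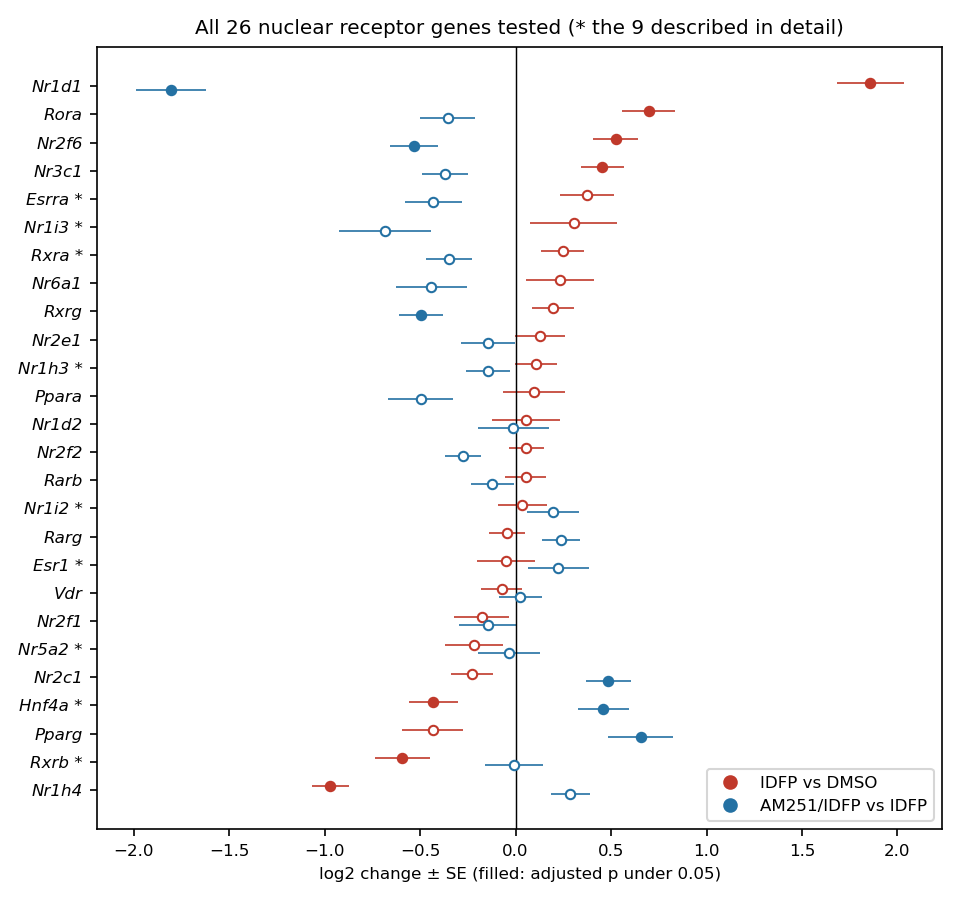
Log2 change ± SE (limma) for IDFP vs. DMSO (red) and AM251/IDFP vs. IDFP (blue) of the 9 receptors described here, marked with an asterisk, and the 17 other tested receptors, ordered by the first change and filled where the adjusted p was under 0.05. Hnf4a (-0.43) and Rxrb (-0.59) lie near the lower end, above Nr1h4 (-0.97), and Nr1d1 (1.86) stands at the upper end.

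Coregulators carry the signal from these receptors to chromatin. Of 15 tested, 2 rose for IDFP vs. DMSO, Ppargc1b (2.31 ± 0.27, SE, adjusted p = 1.26e-05) and Ppargc1a (0.90 ± 0.20, adjusted p = 0.0048), the PGC-1 coactivators that bind Esrra and Hnf4a among others. The corepressor subunit Tbl1x (0.34, adjusted p = 0.0858) and the corepressor Nrip1 (0.49, adjusted p = 0.1) were not called. With AM251 before IDFP, Ppargc1b fell by 1.51 ± 0.28 (adjusted p = 0.00179) and Tbl1x by 0.45 ± 0.14 (adjusted p = 0.043), and no other was called. The mean signal of Ppargc1a was 103 ± 32.8 (SD) in DMSO, 193 ± 59.3 in IDFP and 175 ± 41.7 with AM251/IDFP, still above DMSO by 0.79 on the log2 scale (adjusted p = 0.0349). Tbl1xr1 was also higher (0.59, adjusted p = 0.0394) and the deacetylase Hdac3 lower (-0.30, adjusted p = 0.0187) in AM251/IDFP than in DMSO. The median of the list was 0.096 for IDFP vs. DMSO.

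The receptors did not vary as one group across the 19 livers. These correlations are descriptions over arrays that share 1 normalization and the group differences, so the value after subtraction of the group means is given for each pair. Hnf4a and the brighter Rxrb probe varied together (Pearson r = 0.592, within groups 0.658). Hnf4a and the tested Nr1h3 probe varied against each other (r = -0.681, within groups -0.681). The dimmer Nr1h3 probe was not correlated with Hnf4a here. It was the lowest of its group, as was Hnf4a, in IDFP replicate 8 (172.7, Hnf4a 4849) and AM251/IDFP replicate 4 (145.0, Hnf4a 8637). The opposition is thus given for the tested probe only. Hnf4a and Esrra were also opposed (r = -0.639), though less within groups (-0.371). The genes most like Hnf4a among 9345 others were Nrf1 (r = 0.903, within groups 0.865), Cmtr2 (0.893, within 0.779) and Galnt2 (0.892, within 0.826), and those most like the brighter Rxrb probe were Dpagt1 (0.959, within 0.914), Zfp574 (0.956, within 0.92) and Mrpl2 (0.933, within 0.87). These are the highest of 9345 values for each receptor.

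For the other receptors, each by its tested probe, the closest genes by the same measure were as follows. Nr1i2 was closest to Tor1a (r = 0.797, within groups 0.889), Hsd17b7 (0.761, within 0.718) and Chaf1b (0.753, within 0.857), and Nr1i3 to Fgfr4 (0.81, within 0.724), Atp2c1 (0.803, within 0.737) and Opa1 (0.759, within 0.79). The closest genes of Nr1h3 were Tmem234 (0.862, within 0.901), Ndufc1 (0.851, within 0.893) and Tmem86b (0.843, within 0.846), and those of Nr5a2 were Zfhx2 (0.787, within 0.753), Sepsecs (0.74, within 0.726) and Rtl8b (0.733, within 0.772). Rxra was closest to Syngr2 (0.82, within 0.741), Cpd (0.797, within 0.732) and Epn1 (0.756, within 0.661). Esr1 had Gpn3 (0.734, within 0.767), Mrps35 (0.71, within 0.731) and Hbb-bt (0.706, within 0.679), and Esrra had Agfg2 (0.892, within 0.82), Inpp5k (0.865, within 0.802) and Cog1 (0.856, within 0.773). The order of these values differs between the overall and the within-group measure.

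The promoters of the 10 genes were scanned for short motifs over the 250 bases before each of 17 RefSeq starts, on both strands and with overlapping matches counted. The half-site AGGTCA, which many of these receptors bind, occurred in 3 of the 17 promoters (of Nr5a2, Rxra and Thrb), beside 14.0% of 32851 RefSeq promoters. The GC box GGGCGG occurred in 6 of the 17 (of Esrra, Hnf4a, Rxra, Rxrb and Thrb), beside 32.7% of all promoters, and the E-box CACGTG in 2 (of Nr1i3 and Thrb), beside 6.02%. The HNF4 motif CAAAGTCCA was in none of these windows and in 0.384% of all promoters, and no match says only that these letters are not in the window.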

How the data were processed

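Liver RNA of 19 mice was hybridised to 1-colour Illumina MouseRef-8 v2.0 arrays, 1 mouse to an array. The authors' deposited values are linear intensities from BeadStudio 3.2, with background subtraction and quantile normalization, so that 30.15% of the values are below 0. Low signals are therefore close to the background, and array-wide shifts have been removed by the normalization. Groups came from the sample labels. A further table of 38 columns without normalization was not used, because its columns, named by chip and position, could not be tied to single mice. Chip effects were thus not tested. The genome build behind the probes is not given in the sources used here. Coordinates and promoters came from RefSeq (GRCm38.p6), by gene symbol, for all 10 genes.

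Each array's background SD (10.62 to 10.67 units) was the root mean square of its deposited values below 0. A probe with a deposited value above 1.645 times it (17.47 to 17.56 units) was called detected, since no detection p-values could be used. Intensities were corrected with normexp (offset 16, no control probes) and quantile normalized, and limma 3.58.1 (lmFit, eBayes; R 4.3.3) was fitted to the log2 values of all 3 groups together. Quantile normalization was repeated after normexp and shifted log2 values by at most 0.00888. Of 16593 named genes, 9346 had a probe detected on most of the arrays in some group, and each was tested by its brightest detected probe. P-values were adjusted by Benjamini-Hochberg over all tested genes, with a threshold of 0.05. The correction raised the deposited values by more than the offset. In DMSO replicate 1 the dimmer Rxrb probe went from 45.0 to 86.7 and the brighter one from 888 to 930. The log2 changes are on the scale of these raised signals and understate changes of dim genes. The number of arrays limits the precision.

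The genes, the lists and the markers were chosen with earlier results of these data known. From each list, the genes named were up to 4 of lowest p in IDFP vs. DMSO and up to 2 of lowest p in AM251/IDFP vs. IDFP, and others that made up small counts of calls (Nr3c1, Nr2c1, Pparg, Alas1, Srebf1 after AM251, Tat, Hdac3, Tbl1xr1 and some values relative to DMSO) were named after their values were seen. Abca1, Alas2, Cd3e and the level of Alb were also given after the values were seen. Correlations between arrays were 0.9523 to 0.9909. The alternatives tried were the offset, median scaling, a floor in place of normexp, other detection filters, other rules for probes, other priors, array weights, the arrays in the fit, a replicate block and each array left out.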

Additional observations from a re-analysis of the deposited data

Results flagged for a closer look

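A single liver stood far from the rest of its group for 2 of 39 probe and group combinations of detected receptor probes, by the gap to its neighbour as a share of the group's range, a measure that chance exceeds in about 1 in 20 groups. For Nr1i3, DMSO replicate 1 read 1466.79, beside 1113.24 for the next DMSO liver and 930.675 for the lowest, a gap of 0.659 of the range and above the 95% critical value for 6 samples. For the tested Nr1h3 probe, IDFP replicate 8 read 1682.1, beside 1311.31 for the next IDFP liver and 1010.88 for the lowest, a gap of 0.552 of the range and above that for 8 samples. The second, dimmer Nr1h3 probe went the other way on that array, at 172.7, the lowest of its IDFP values. In AM251/IDFP replicate 4 the tested probe was likewise the highest of its group (1429) and the dimmer probe the lowest (145.0). IDFP replicate 8 also had the lowest IDFP signals of Nr1i3, Hnf4a and the brighter Rxrb probe. Without it, no call of Nr1h3 changed.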

How the results depend on the processing

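Each of the 27 log2 changes of the 9 tested receptors was recomputed under 11 other settings and with each of the 19 arrays left out. Of 297 values under the other settings, 284 kept their direction and their side of the threshold, 6 lost a call, 5 gained one and 2 changed sign. Of 513 values with an array left out, 474 kept both, 13 lost a call, 6 gained one and 20 changed sign. The changes of sign were all in values that were not called. They lay at -0.13 to 0.038 (Esr1) and -0.052 to 0.11 (Nr1i2) for IDFP vs. DMSO, at -0.11 to 0.025 (Nr5a2) and -0.068 to 0.065 (Rxrb) for AM251/IDFP vs. IDFP, and at -0.20 to 0.095 (Esrra), -0.033 to 0.095 (Hnf4a) and -0.11 to 0.027 (Nr1h3) for AM251/IDFP vs. DMSO. The number of receptors called with an array left out was 1 to 3 for IDFP vs. DMSO, 0 to 2 for AM251/IDFP vs. IDFP and 0 to 1 for AM251/IDFP vs. DMSO. With an array left out, 1050 to 1757, 667 to 1098 and 408 to 1198 of all genes were called in the same order, with the lowest values of the latter without AM251/IDFP replicate 3 and DMSO replicate 3. The fall of the brighter Rxrb probe under IDFP was called in all 19 of these fits (adjusted p = 0.00242 to 0.0244). With the probes of a gene averaged, 1 receptor was called for IDFP vs. DMSO and 0 for AM251/IDFP vs. DMSO. With only the groups compared in the fit, 0 receptors and 450 of all genes were called for AM251/IDFP vs. DMSO (Rxrb adjusted p = 0.0668), and Esrra was called for IDFP vs. DMSO (0.37, adjusted p = 0.0195). Without a detection filter, 0 receptors were called for AM251/IDFP vs. IDFP (Hnf4a adjusted p = 0.0504), as more genes were tested. With array weights, 4 were called there, among them Nr1i3 (-0.70, adjusted p = 0.0316), Rxra (-0.37, adjusted p = 0.0391) and Esrra (-0.42, adjusted p = 0.0434), and Nr5a2 turned to 0.012. The same replicate numbers recur in every group, and over 16 pairs of equal number the deviations from the group means correlated at -0.193 to 0.264 (median 0.0158, 5 over 0.1), so the numbers were not taken to pair the mice. With the replicate number as a block, 1025, 525 and 790 of all genes and 1, 1 and 1 of the receptors were called in the 3 comparisons. In that block fit Hnf4a was not called for IDFP vs. DMSO (-0.33, adjusted p = 0.131) or AM251/IDFP vs. IDFP (0.36, adjusted p = 0.165), Rxrb was called (-0.58, adjusted p = 0.0381, and -0.62, adjusted p = 0.0453, relative to DMSO), Nr1i3 was called for AM251/IDFP vs. IDFP (-0.94, adjusted p = 0.0195) and Nr5a2 turned to 0.033 there. The percent reversal lay at 89.3% to 127.6% for Hnf4a and -8.80% to 7.56% for Rxrb with an array left out. Other causes of these shifts were not tested.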
